A study of Mus musculus with 48 samples.

Results

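The members described here are 115 long noncoding RNA genes that were well measured in NMM, a melanoma cell line of the mouse whose NRAS is mutated. They were chosen by annotation and level: the deposited table labels each of them lincRNA or antisense, and each had a mean CPM (its reads scaled to the total reads of the library) of at least 2 over the 48 libraries. That left 115 of the 6674 genes with these labels, 75 of 4255 lincRNA genes and 40 of 2419 antisense genes, in a table of 49671 genes. The level of each member therefore decided its place, and the levels are a description. Just inside the threshold were Gm13563 at 2.08 CPM, Gm29100 at 2.08 CPM and Cep83os at 2.07 CPM, and just outside it were RP23-162P10.8 at 1.99 CPM, AW112010 at 1.97 CPM and Gm15545 at 1.95 CPM. In the 4 unstimulated libraries 110 of the 115 members also had a mean of at least 2 CPM. The other members, Gm17024, Gm17173, Gm26520, Gm4262 and 9530082P21Rik, reached the threshold through stimulated libraries, so their increases are not independent of the choice.

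The cells were grown as 1 line in culture and stimulated continuously for 2, 6, 12 or 24 h. A group was left unstimulated, and the others received IL-2 at 6000 U/ml, lymphotoxin α1β2 at 2 ng/ml, TGF-β at 10 ng/ml, IFN-α1 at 5000 U/ml, IFN-γ at 0.01, 1 or 100 ng/ml, TNF at 0.1, 1 or 10 ng/ml, or IFN-γ at 100 ng/ml together with TNF at 10 ng/ml. Every stimulus and duration was a single library, 48 in all, so the 4 durations served as the replicates of a stimulus and the 12 stimuli as the replicates of a duration; nothing says that they were separate experiments, and the p-values measure only the spread between these libraries. All groups carry the NRAS mutation, and no second line was used. Libraries held 5612907 to 9663207 counts, and 1 count was worth 0.103 to 0.178 CPM. Of 8 melanocyte genes, Mitf had 3.50 to 12.6 CPM, Pmel at most 1.07 CPM, and Dct and Mlana no count in any library, so the labelled melanoma cells lacked most pigment cell markers. Of 5 genes of dedifferentiated melanoma and neural crest, Axl had 1773 to 2432 CPM and Sox2 45.6 to 88.5 CPM. Sox9 had 37.3 to 126 CPM and Nes 17.9 to 64.8 CPM, while Ngfr had at most 1.03 CPM. T and NK cell genes summed to at most 1.09 CPM and leukocyte genes to 5.48 CPM. The fibroblast list summed to 61.8 to 619 CPM, with Col3a1 at 31.8 to 563 CPM. On that list Dcn and Pdgfra had at most 47.6 and 21.9 CPM, and Col1a1 and Lum at most 1.49 and 0.356 CPM. The endothelial list summed to 2.71 to 27.3 CPM, nearly all of it Cdh5. In bulk RNA a smaller number of cells and less RNA per cell cannot be told apart.

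Long noncoding RNAs act in several ways. Some, like Malat1 and Neat1, stay in the nucleus at speckles and paraspeckles, some silence genes in cis at imprinted clusters, some are hosts that release small nucleolar RNAs or microRNAs, and many start close to a coding gene and are read from the other strand of a shared promoter. In cells that meet interferon or TNF, STAT, IRF and NF-κB factors act at promoters and enhancers, and noncoding transcripts near responding coding genes can change with them.

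The promoter windows of 6 members that carry the stimulus results are shown. With IFN-γ plus TNF, 9330175E14Rik and BC051226 were called in the same direction as a coding neighbour. Ptgs2os2, Gm26797 and Dubr are among the members that hold a searched motif, and AU020206 is an abundant member that rose with IFN-γ and holds none. The letters run 5′ to 3′ on the strand of the RNA, from 250 bases before to 50 bases after the RefSeq start site (GRCm38.p6). Capitals mark a match to the gamma-activated site (GAS, TTCNNNGAA) or the interferon-stimulated response element (ISRE), searched on both strands together with the NF-κB site. The coordinates are chr8:94435054-94435353, minus strand, for 9330175E14Rik, chr17:33909129-33909428, minus strand, for BC051226, chr7:75782071-75782370, minus strand, for AU020206, chr1:150164899-150165198, minus strand, for Ptgs2os2, chr9:122310879-122311178, minus strand, for Gm26797 and chr16:50732724-50733023, minus strand, for Dubr.
9330175E14Rik: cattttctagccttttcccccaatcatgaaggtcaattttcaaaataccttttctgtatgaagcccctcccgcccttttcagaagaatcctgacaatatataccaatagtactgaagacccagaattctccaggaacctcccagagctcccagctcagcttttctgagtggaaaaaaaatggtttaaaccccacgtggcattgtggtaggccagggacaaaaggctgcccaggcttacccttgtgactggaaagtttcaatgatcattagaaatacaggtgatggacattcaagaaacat
BC051226: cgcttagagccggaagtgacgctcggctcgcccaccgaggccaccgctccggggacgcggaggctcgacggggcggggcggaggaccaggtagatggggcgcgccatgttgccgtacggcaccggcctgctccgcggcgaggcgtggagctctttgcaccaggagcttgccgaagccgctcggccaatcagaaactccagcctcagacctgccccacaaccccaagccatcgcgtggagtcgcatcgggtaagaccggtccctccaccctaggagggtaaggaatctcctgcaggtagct
AU020206: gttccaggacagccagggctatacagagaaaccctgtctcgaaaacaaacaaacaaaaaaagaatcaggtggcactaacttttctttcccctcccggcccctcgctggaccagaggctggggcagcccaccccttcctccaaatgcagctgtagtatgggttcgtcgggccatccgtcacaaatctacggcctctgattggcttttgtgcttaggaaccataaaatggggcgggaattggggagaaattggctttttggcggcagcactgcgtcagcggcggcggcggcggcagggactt
Ptgs2os2: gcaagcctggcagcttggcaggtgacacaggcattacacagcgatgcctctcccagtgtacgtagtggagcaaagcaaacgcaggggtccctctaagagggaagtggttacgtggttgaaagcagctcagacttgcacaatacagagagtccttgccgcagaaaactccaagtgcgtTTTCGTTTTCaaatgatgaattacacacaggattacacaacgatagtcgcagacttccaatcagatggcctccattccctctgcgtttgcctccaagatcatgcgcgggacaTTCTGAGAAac
Gm26797: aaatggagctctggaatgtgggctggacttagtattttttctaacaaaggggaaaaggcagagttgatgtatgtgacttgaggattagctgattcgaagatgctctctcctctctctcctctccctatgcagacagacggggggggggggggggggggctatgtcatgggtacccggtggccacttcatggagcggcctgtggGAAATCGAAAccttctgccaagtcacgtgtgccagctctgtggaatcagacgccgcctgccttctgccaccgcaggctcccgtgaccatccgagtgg
Dubr: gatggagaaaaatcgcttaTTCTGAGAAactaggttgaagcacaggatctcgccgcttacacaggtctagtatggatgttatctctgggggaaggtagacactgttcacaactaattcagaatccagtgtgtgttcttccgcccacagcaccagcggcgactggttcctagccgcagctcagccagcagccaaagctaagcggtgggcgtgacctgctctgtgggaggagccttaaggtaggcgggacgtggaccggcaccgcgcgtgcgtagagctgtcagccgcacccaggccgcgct

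Of 29 members that were called in at least 1 of the 4 main stimulus comparisons and have a window in the table, 3 held a GAS, 2 an ISRE and 1 an NF-κB site. Over all 32851 windows of the same length, 8.30% held a GAS, 3.44% an ISRE and 4.505% an NF-κB site. These shares are per window, while a member was counted if any of its windows matched, and some members have several. In Gm26797 the ISRE began at position -47 from the start site. In Ptgs2os2 the ISRE began at -73 and the GAS at 39, and in Dubr the GAS began at -231. The remaining GAS, at -243, was in Gm10561, a member called lower with IFN-γ and with IFN-γ plus TNF. The NF-κB site, at -38, was in 1 of several windows of Gm28809, which was called higher with IFN-γ plus TNF. The windows of 9330175E14Rik, BC051226 and AU020206, which rose with interferon, held no match, which says only that these letters are not in these windows. The 9330175E14Rik window lies inside Nlrc5, whose start is on the other strand, and the first bases of the BC051226 window, read from the other strand, cover the start of Daxx.

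Most counts of the members came from a single gene. Gm42418, on chromosome 17, had a mean of 4976 CPM, against 897 CPM for Malat1 and 237 CPM for Neat1. Together the members held 0.579% to 0.975% of the counts of a library, and 0.186% to 0.430% without Gm42418. In the GENCODE M21 annotation 1822 of its 1831 exon bases lie opposite a gene of the ribosomal RNA type, so its counts may hold reads from ribosomal RNA; whether they do was not tested. Per kilobase of exon, Gm42418 had a level of 2718 CPM, Gm15564 249 CPM, Malat1 128 CPM, Snhg6 28.6 CPM, Gm26917 23.9 CPM, AU020206 23.5 CPM, Pvt1 22 CPM and Neat1 11.4 CPM. The fitted change of Gm42418 was 0.16 ± 0.11 (log2, SE; adjusted p = 0.27, edgeR) with IFN-γ plus TNF, and its levels overlapped across the durations, with medians from 4620 CPM at 2 h to 5415 CPM at 12 h. The next members by mean level were Gm15564 at 205 CPM, Pvt1 at 154 CPM, Brip1os at 89.4 CPM, 1700020I14Rik at 83.6 CPM, Gm26917 at 79.7 CPM, AU020206 at 74.8 CPM and 1810058I24Rik at 34.3 CPM. Most other members were low: 70 had a mean below 5 CPM and 25 a mean of at least 10 CPM, with a median of 4.15 CPM. Only 9530082P21Rik and H19 had a library with no count.

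The members lie close to coding genes. The nearest coding gene overlaps 51 of them, is on the opposite strand for 78, and for 25 the start sites of the pair lie within 2000 bases on opposite strands. In 55 members some exon bases lie opposite an exon of another gene. The library kit keeps the strand, but the strand setting of the counting is not given in the sources used here, so reads from a member and an overlapping gene on the other strand may not be fully separated.

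IFN-γ at 100 ng/ml changed 18 of the 115 members (15.7%), 9 higher and 9 lower, in a test that called 22.1% of all 12203 genes, 12.8% higher and 9.3% lower. A member was called where the adjusted p from edgeR's quasi-likelihood test was below 0.05, over all tested genes. Of the 110 members with an unstimulated mean of at least 2 CPM, 17 were called, 8 higher and 9 lower. The median log2 change was 0.00 over all 115 members and -0.02 over all genes. The strongest increases belonged to 9530082P21Rik, 9330175E14Rik, Gdap10, AU020206 and Gm10419, and the strongest decreases to H19, Gm16001 and Gm16104.

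9330175E14Rik (chromosome 8, 94422898 to 94435103, minus strand) is a lincRNA that starts inside Nlrc5, the transactivator of MHC class I genes, on the other strand. At 2, 6, 12 and 24 h it had 2.15, 1.94, 4.30 and 2.99 CPM without stimulus, and 11, 10.7, 14.8 and 14.7 CPM with IFN-γ at 100 ng/ml. All 4 stimulated libraries were above all 4 unstimulated ones, by 2.29 ± 0.25 on the log2 scale (adjusted p = 7.7e-09, edgeR). With IFN-γ at 1 ng/ml it had 8.51, 12, 13.1 and 13 CPM, again above every unstimulated library, and the change was 2.14 ± 0.26. At 0.01 ng/ml its levels of 2.13, 3.22, 4.35 and 2.77 CPM overlapped the unstimulated ones.

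The response of 9330175E14Rik was not limited to IFN-γ. IFN-α1 gave 6.35, 7.68, 7.27 and 8.77 CPM and a log2 change of 1.48 ± 0.27 (adjusted p = 0.00015, edgeR). TNF at 10 ng/ml gave 2.70, 3.98, 7.70 and 9.17 CPM, with the 2 h and 6 h libraries within the unstimulated range, and a change of 1.11 ± 0.28 (adjusted p = 0.0045, edgeR); without the 24 h libraries, or without the libraries of high Malat1 described below (log2 change 0.85), this call was lost. The level under IFN-γ at 100 ng/ml was above that under IFN-α1 by 0.81 ± 0.21 (adjusted p = 0.0085, edgeR). Nlrc5 changed by 2.21 ± 0.26 with IFN-γ, 1.27 ± 0.26 with IFN-α1 and 0.89 ± 0.26 with TNF, each call passing the test. Its log2 CPM and that of 9330175E14Rik had a correlation of 0.92 over the 48 libraries, and their deviations from the fit one of 0.45, both descriptions, since the genes share the libraries and the stimuli.

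9530082P21Rik (chromosome 17, 23743234 to 23754065, plus strand) overlaps Kremen2, which had at most 0.159 CPM in any library and was not tested. Without stimulus it had 0, 0.516, 0.662 and 0.816 CPM, a few counts per library, and with IFN-γ at 100 ng/ml 3.35, 4.15, 4.34 and 5.32 CPM. The groups did not overlap, and the fitted log2 change was 3.23 ± 0.50 (adjusted p = 6.8e-06, edgeR). It also rose with IFN-γ at 1 ng/ml (3.02 ± 0.51), IFN-α1 (2.91 ± 0.51), TNF at 10 ng/ml (2.35 ± 0.54) and the combination (3.57 ± 0.48). IFN-α1 gave 6.67 CPM at 6 h and 2.42 to 2.82 CPM at the other durations, so the 6 h library stood above the rest. This member passed the threshold only through its stimulated libraries, and its direction is fixed in part by the choice.

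AU020206 (chromosome 7, 75769038 to 75782099, minus strand) is a lincRNA with 74.8 CPM on average, the most abundant member among those that a stimulus raised at least 2-fold. Its unstimulated levels were 36.2, 54.7, 67.8 and 64.1 CPM, and IFN-γ at 100 ng/ml gave 66.2, 99.4, 138 and 150 CPM. Each stimulated library was above the unstimulated library of the same duration, with a log2 change of 1.09 ± 0.16 (adjusted p = 4.7e-06, edgeR). IFN-γ at 1 ng/ml gave 44.9, 89.5, 135 and 132 CPM (0.87 ± 0.16). IFN-α1 gave 42.6, 55.8, 60.7 and 68.6 CPM, within or close to the unstimulated range, with a change of 0.09 ± 0.17 (adjusted p = 0.81, edgeR). The difference between the interferons was itself past the test, at 1.00 ± 0.16 (adjusted p = 4.6e-05, edgeR). The nearest coding gene, Akap13, 14429 bases away, changed by -0.15 ± 0.10 with IFN-γ and was not called.

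Gm10419, a lincRNA on chromosome 5, had 3.16, 3.61, 3.31 and 3.26 CPM without stimulus and 7.88, 5.74, 5.43 and 7.40 CPM with IFN-γ at 100 ng/ml, which did not overlap. The log2 change was 1.08 ± 0.21 (adjusted p = 0.00024, edgeR). At 1 ng/ml it was 0.36 ± 0.23 and not called, and with IFN-α1 it was 0.15 ± 0.23; the difference of IFN-γ from IFN-α1 was 0.93 ± 0.21 (adjusted p = 0.0018, edgeR). Gdap10 lies within Nampt, the enzyme of NAD salvage, on the same strand. It had 2.87, 2.32, 9.26 and 3.26 CPM without stimulus and 11.2, 8.13, 12.2 and 11.2 CPM with IFN-γ at 100 ng/ml, so that the 12 h unstimulated library overlapped the stimulated ones. Its change was 1.43 ± 0.33 (adjusted p = 0.0018, edgeR), beside 0.92 ± 0.11 for Nampt, and reads of unspliced Nampt RNA cannot be told apart from Gdap10 in these counts.

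Other members rose less with IFN-γ at 100 ng/ml. Snhg12, a host of small nucleolar RNAs, had 23.3, 23.1, 24.1 and 23.7 CPM without stimulus and 23.4, 32.7, 43.6 and 45.6 CPM with it. Its level did not differ from the control at 2 h and was higher at the later durations (0.69 ± 0.15, adjusted p = 0.00093, edgeR), and its slope of the response on log2 hours was 0.29 ± 0.08 (adjusted p = 0.030, edgeR), a call lost without the libraries of high Malat1 (0.19). Pvt1, which lies beside the growth regulator gene Myc, rose by 0.43 ± 0.13 (adjusted p = 0.020, edgeR) from 136 to 147 CPM unstimulated to 148 to 215 CPM, while Myc changed by 0.34 ± 0.13 and was not called (adjusted p = 0.053, edgeR). Gm16973 (0.61) and Dubr (0.50) were the other members called higher.

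Decreases with IFN-γ at 100 ng/ml were led by H19, the maternally expressed RNA of the imprinted Igf2 cluster and the host of a microRNA. H19 had 4.74, 2.97, 2.81 and 4.35 CPM without stimulus and 2.99, 1.44, 0.407 and 0.649 CPM with IFN-γ, a change of -1.45 ± 0.46 (adjusted p = 0.019, edgeR); the 2 h library was within the control range, and the call was lost without the 6 h, the 12 h or the 24 h libraries and without the libraries of high Malat1 (-1.12). IFN-γ at 1 ng/ml gave 2.32, 1.94, 0.618 and 0.135 CPM (-1.59 ± 0.47), a call lost without the 12 h or the 24 h libraries. Gm16001, 33 bases from Ogfod2, had 4.02, 2.45, 3.14 and 3.94 CPM without stimulus and 1.91, 0.797, 1.09 and 1.69 CPM with IFN-γ at 100 ng/ml, with no overlap (-1.21 ± 0.23, adjusted p = 0.00021, edgeR); without the libraries of high Malat1 its change was -0.99 and not called. Ogfod2 changed by -0.23 and was not called. Gm16104 (-1.09 ± 0.40, a call lost whenever any duration was left out), Gm10561 (-0.81), Snhg18 (-0.76), 2610035D17Rik (-0.75), Gm16062 (-0.60), 4632415L05Rik (-0.40) and C330006A16Rik (-0.22) made up the rest of the members called lower.

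The 18 calls were fewer under several settings: 6 without the 12 h libraries, 8 without the 24 h libraries and 11 without the 6 h libraries. They were also 6 without the 8 libraries of high Malat1, which leaves IFN-γ at 100 ng/ml with its 2 h and 6 h libraries.

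**Figure D1:**
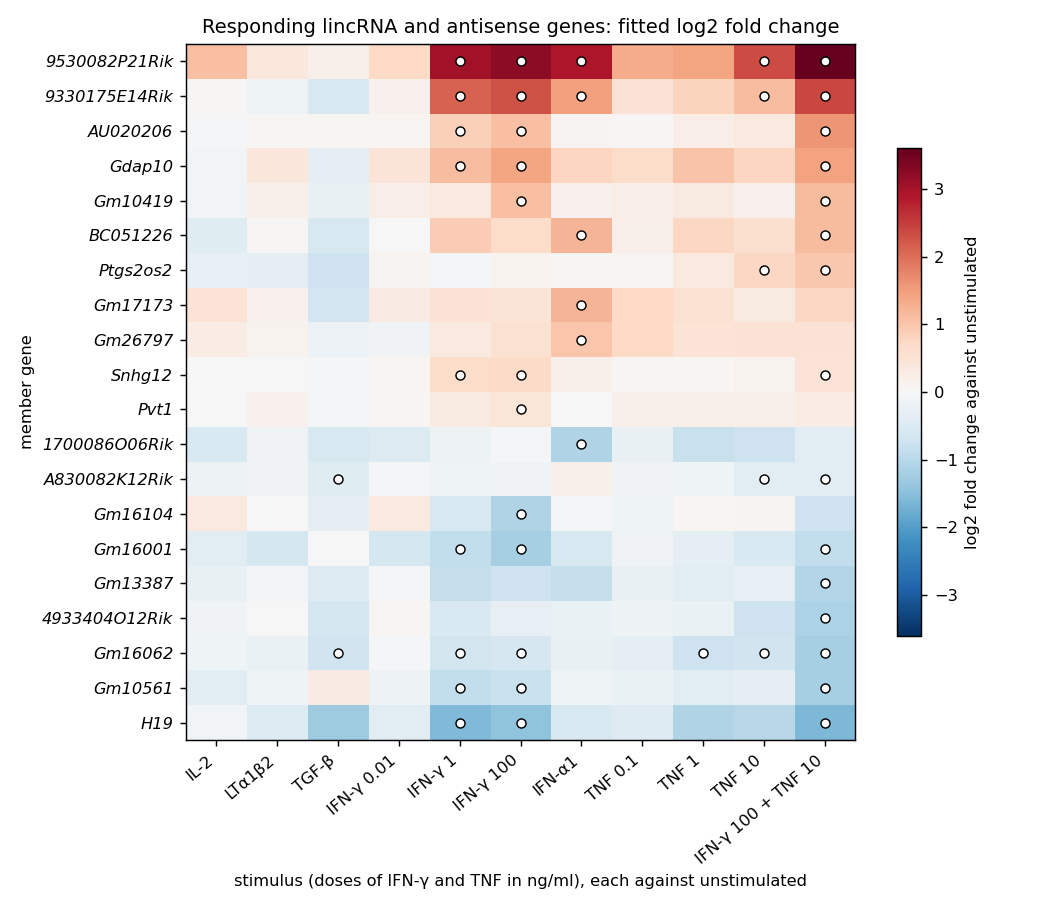
Fitted log2 fold change against unstimulated (colour) for 20 members (rows) and 11 stimuli (columns); white circles mark an adjusted p below 0.05 (edgeR). 9530082P21Rik and 9330175E14Rik are red under both interferons, TNF at 10 ng/ml and the combination, and H19 is blue under IFN-γ at 1 and 100 ng/ml, TNF and the combination.

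In the main fit fewer members were called at the lower doses of IFN-γ than at 100 ng/ml, which called 22.1% of all genes. The share over all genes fell too, and the doses were not tested against each other. At 1 ng/ml 11 members were called (9.57%), 7 higher and 4 lower, against 15% of all genes. Both doses were compared with the same unstimulated libraries, and 6 of the 7 higher and all 4 lower members were also called at 100 ng/ml. In the 110 members with an unstimulated mean of at least 2 CPM there were 10 calls at 1 ng/ml, 6 higher and 4 lower. The 11 calls became 6 without the 6 h libraries, 5 without the 12 h libraries and 4 without the 24 h libraries. At 0.01 ng/ml no member was called, against 0% of all genes, with 2 members at an unadjusted p below 0.05 by edgeR, and DESeq2 called 0.

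IFN-α1 at 5000 U/ml changed 6 members (5.22%), 5 higher and 1 lower, against 9.27% of all genes, 6.18% higher and 3.09% lower. Among the 110 members with an unstimulated mean of at least 2 CPM there were 4 calls, 3 higher and 1 lower. Besides 9530082P21Rik and 9330175E14Rik, the members higher were Gm17173, BC051226 and Gm26797. Gm17173 is antisense to Ptger2, a prostaglandin E2 receptor, and had 0.718, 1.42, 2.81 and 1.77 CPM without stimulus and 1.41, 1.02, 6.6 and 7.35 CPM with IFN-α1. The 12 h and 24 h libraries were higher and the earlier ones were not (1.23 ± 0.36, adjusted p = 0.021, edgeR; the call was lost without either late duration), and Ptger2 changed by 1.18 ± 0.36 (adjusted p = 0.027, edgeR). Gm17173 is among the members whose unstimulated mean is below 2 CPM. The 6 calls with IFN-α1 became 3 without the 6 h libraries and 2 without the 12 h or the 24 h libraries.

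BC051226 is an antisense gene 97 bases from Daxx, a histone chaperone, and is transcribed away from it. Without stimulus it had 1.72, 2.45, 3.14 and 1.5 CPM, and with IFN-α1 1.83, 7.57, 4.98 and 5.81 CPM. The increase of 1.22 ± 0.32 (adjusted p = 0.010, edgeR) came from 6 h on and was lost when the 6 h, the 12 h or the 24 h libraries were left out. Daxx changed by 1.59 ± 0.23 and had its highest level under IFN-α1, 315 CPM, at 2 h, when BC051226 had 1.83 CPM, close to the control. Gm26797 had 2.30, 2.71, 1.82 and 2.04 CPM without stimulus and 3.95, 4.97, 4.04 and 4.52 CPM with IFN-α1, with no overlap (1.00 ± 0.28, adjusted p = 0.017, edgeR; lost without the 6 h, the 12 h or the 24 h libraries). The member called lower with IFN-α1 was 1700086O06Rik (-1.07 ± 0.29, adjusted p = 0.014, edgeR), with 3.01, 4.77, 1.65 and 2.72 CPM without stimulus and 1.69, 2.37, 0.808 and 0.774 CPM with it; the ranges overlapped, and the call was lost without the 6 h, the 12 h or the 24 h libraries.

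Set against each other, IFN-γ at 100 ng/ml and IFN-α1 differed in 13 members (11.3%), 10 higher and 3 lower with IFN-γ, against 16.1% of all genes. AU020206, 1700086O06Rik (1.00), Gm10419, 9330175E14Rik, Ftx (0.70) and Neat1 (0.61) were among those higher with IFN-γ. For 9530082P21Rik the difference was 0.31 ± 0.34 and not called (adjusted p = 0.57, edgeR). There were 4 calls without the libraries of high Malat1, 7 without the 6 h libraries, 3 without the 12 h libraries, 4 without the 24 h libraries and 19 without the 2 h libraries, so not all of these differences rest on every duration.

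TNF at 10 ng/ml changed 6 members (5.22%), 3 higher and 3 lower, against 17.1% of all genes, 9.83% higher and 7.3% lower. Over the 110 members with an unstimulated mean of at least 2 CPM there were 5 calls, 2 higher and 3 lower. Higher among all members were 9530082P21Rik, which passed the threshold only through stimulated libraries, 9330175E14Rik and Ptgs2os2. Ptgs2os2 is also known as lincRNA-Cox2, which regulates inflammatory genes in macrophages. Ptgs2os2 had 4.02, 4.39, 4.80 and 2.86 CPM without stimulus and 6.11, 6.75, 6.13 and 6.44 CPM with TNF, which did not overlap (0.75 ± 0.23, adjusted p = 0.019, edgeR). The coding gene Ptgs2, 50816 bases away, encodes cyclooxygenase 2; it changed by 0.48 ± 0.28 and was not called (adjusted p = 0.25, edgeR). Lower were Gm16062 (-0.71 ± 0.17), Gm42517 (-0.63 ± 0.23) and A830082K12Rik (-0.37 ± 0.13), the last a transcript opposite Nr2f1, an orphan nuclear receptor gene that fell by 0.68 on the log2 scale. The 6 calls became 3 without the 6 h libraries, 3 without the 12 h libraries, 2 without the 24 h libraries, 10 without the 2 h libraries and 3 without the libraries of high Malat1.

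The lower doses of TNF called few members. At 1 ng/ml only Gm16062 was called (0.870% of the members, against 2.72% of all genes), at -0.73 ± 0.17 (adjusted p = 0.010, edgeR), a call that was lost when the 6 h, the 12 h or the 24 h libraries were left out, while the fit to the compared groups alone called 7 members. At 0.1 ng/ml no member was called, against 0.0164% of all genes, with 5 members at an unadjusted p below 0.05 by edgeR and none called by DESeq2.

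The combination of IFN-γ at 100 ng/ml with TNF at 10 ng/ml changed 34 members (29.6%), 14 higher and 20 lower, where 42% of all genes were called, 20.9% higher and 21.2% lower. The median log2 change was -0.12 over the members and -0.03 over all genes. Leaving out the 2 h, 6 h, 12 h or 24 h libraries gave 44, 21, 17 and 23 calls, and the fit to the compared groups alone gave 10. The comparisons of IFN-γ, TNF and the combination share the unstimulated libraries.

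AU020206 reached its highest levels under the combination: 53.6, 137, 211 and 226 CPM. From 6 h on, these were above the libraries of the same duration from all other groups, and the change against unstimulated was 1.59 ± 0.16 (adjusted p = 4.9e-10, edgeR). Against IFN-γ alone the difference was 0.50 ± 0.15 (adjusted p = 0.024, edgeR) and against TNF alone 1.23 ± 0.16 (adjusted p = 3.2e-07, edgeR). The response grew with time, with a slope of 0.37 ± 0.05 per doubling of the hours (adjusted p = 9.2e-06, edgeR), and 0.46 without the libraries of high Malat1, still called. 9330175E14Rik had 7.35, 13.7, 17 and 15.1 CPM under the combination, and its difference from IFN-γ alone was 0.12 ± 0.20 and not called (adjusted p = 0.74, edgeR).

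Ptgs2os2 had 4.63, 6.18, 7.34 and 9.31 CPM under the combination. Its change was 0.98 ± 0.22 (adjusted p = 0.00047, edgeR), with a slope of 0.43 ± 0.14 (adjusted p = 0.031, edgeR; 0.19 and not called without the libraries of high Malat1), and it was above IFN-γ alone by 0.84 ± 0.22 (adjusted p = 0.0067, edgeR). Ptgs2 changed by 1.09 ± 0.28. BC051226 had 0.544, 4.71, 5.54 and 6.93 CPM, below the unstimulated level at 2 h and above it later (1.13 ± 0.33, adjusted p = 0.0047, edgeR; slope 0.86 ± 0.25, adjusted p = 0.014, edgeR). Its call was lost without the 24 h libraries and without the libraries of high Malat1 (0.85), where the slope of 0.91 was not called either. Daxx changed by 2.06 ± 0.23 and was already at 210 CPM at 2 h, against 67.9 CPM without stimulus.

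Gm16062 is antisense to Cops3, a subunit of the COP9 signalosome. It had 8.47, 10.1, 7.94 and 8.43 CPM without stimulus and 5.99, 2.72, 2.63 and 2.90 CPM under the combination. No value overlapped, and the change was -1.18 ± 0.18 (adjusted p = 1.3e-06, edgeR), while Cops3 changed by -0.10 ± 0.06 and was not called. Gm16062 was also called lower with IFN-γ at 1 and 100 ng/ml, TNF at 1 and 10 ng/ml and TGF-β, and the difference of the combination from IFN-γ alone was -0.59 ± 0.19 (adjusted p = 0.032, edgeR).

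H19 had 2.45, 1.78, 0.277 and 0.207 CPM under the combination, all below the 4 unstimulated libraries, with a change of -1.63 ± 0.46 (adjusted p = 0.0042, edgeR; lost without the 12 h libraries) and a slope of -0.81 ± 0.26 that was not called without the libraries of high Malat1 (-0.67). With TNF at 10 ng/ml it went from 5.68 CPM at 2 h to 1.81, 0.570 and 0 CPM, and the slope was -1.29 ± 0.26 (adjusted p = 0.0033, edgeR), although its mean change of -0.99 ± 0.43 was not called (adjusted p = 0.11, edgeR); without the libraries of high Malat1 the slope was -1.15 and not called (adjusted p = 0.053, edgeR). Gm10561 is antisense to Rftn2, and its levels of 2.04, 1.15, 0.693 and 2.79 CPM lay below the unstimulated 3.45, 3.10, 3.80 and 7.35 CPM (-1.21 ± 0.25, adjusted p = 0.00015, edgeR). Rftn2, a raftlin gene, changed by -0.79 ± 0.20. Gm13387 and 4933404O12Rik had changes of -1.06 ± 0.33 and -1.14 ± 0.31, the second lost without the 6 h or the 12 h libraries; Gm13387 had 5.99 CPM at 2 h, within the control range, and 0.693 and 0.414 CPM at 12 and 24 h, and its call was lost without the 12 h or the 24 h libraries and without those of high Malat1 (-0.63).

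**Figure D2:**
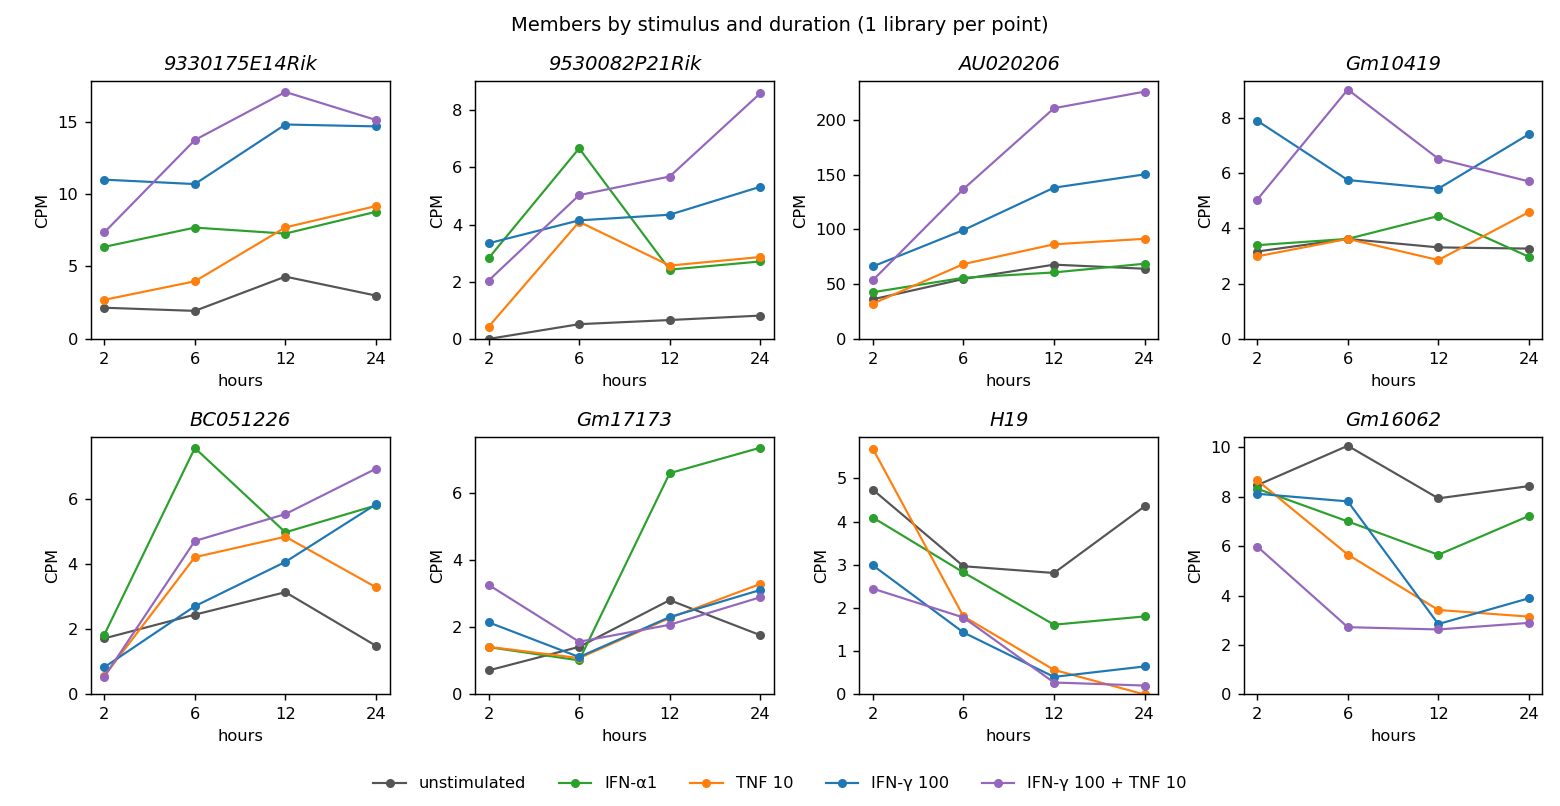
CPM (vertical axis, from 0) of 8 members at 2, 6, 12 and 24 h (equally spaced), 1 library per point, for the unstimulated group and 4 stimuli. AU020206 climbs to 226 CPM under the combination, Gm17173 rises late under IFN-α1, and H19 falls to 0 CPM with TNF at 24 h while the unstimulated library has 4.35 CPM.

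Adding TNF to IFN-γ changed 11 members (9.57%), 4 higher and 7 lower, against 13.9% of all genes, and adding IFN-γ to TNF changed 11 (9.57%), 7 higher and 4 lower, against 14%. In the first case AU020206, Ptgs2os2, A630072M18Rik (0.59) and Haglr (0.46) were higher, and leaving out the 6 h, 12 h or 24 h libraries left 2, 1 and 6 calls, and leaving out the libraries of high Malat1 7. In the second, 9330175E14Rik (1.30), AU020206, 9530082P21Rik (1.22), Gm42517 (1.12) and Gm10419 (1.00) were at least 2-fold higher; there were 5 calls without the 12 h libraries, 4 without the 24 h libraries and 4 without the libraries of high Malat1, where 9530082P21Rik (0.95) was no longer called. Gm42517 was lower with TNF alone (-0.63) and higher with the combination (0.48 ± 0.20). The promoter windows of Gm42517 and Gm10419 overlap on opposite strands. No member was called for departure from additive log2 changes, against 0.0819% of all genes, with 9 members at an unadjusted p below 0.05 by edgeR and 0 called by DESeq2. The largest such departures were those of 9530082P21Rik (-2.01 ± 0.65, adjusted p = 0.22, edgeR) and 9330175E14Rik (-0.98 ± 0.34, adjusted p = 0.25, edgeR), both below the sum of the single changes.

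TGF-β lowered 2 members (1.74%), against 8.28% of all genes: Gm16062 (-0.70 ± 0.17) and A830082K12Rik (-0.44 ± 0.13), the second beside Nr2f1 (-0.72 ± 0.12). Without the 2 h libraries there were 5 calls, without the 6 h libraries 0 and without the 12 h libraries 1, and without the libraries of high Malat1 there were 6. IL-2 and lymphotoxin α1β2 called no member, where 0% of all genes were called, with 2 and 3 members at an unadjusted p below 0.05 by edgeR and 0 by DESeq2 in both.

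Over the 11 comparisons with the unstimulated group, 43 of the 115 members (37.4%) and 52.9% of all genes were called at least once. The response over time also differed: the slope on log2 hours was called for 6 members with IFN-γ at 100 ng/ml, against 6.9% of all genes, for 1 with TNF at 10 ng/ml, against 2.43%, and for 11 with the combination, against 17.4%. Without the libraries of high Malat1 none of the IFN-γ and TNF slopes was called, and of the 11 combination slopes those of AU020206, 1110046J04Rik, Gm28875 and Gm13387 were.

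Members and their neighbours were then set side by side. Of the 34 members called with the combination, 9 had a nearest coding gene called in the same direction, 2 one called in the opposite direction, 16 one that was not called and 7 one that was not tested, in a comparison that called 42% of all genes. In 9 of the called members the start site lies within 2000 bases of the neighbour's on the other strand. Of these, 4 had a neighbour called in the same direction and 5 one that was not called. Over all genes 42% were called in either direction, 20.9% higher and 21.2% lower. The 4 close pairs called in the same direction were 9330175E14Rik with Nlrc5, BC051226 with Daxx, Gm10561 with Rftn2 and A830082K12Rik with Nr2f1. The opposite cases were Gm28809 (0.86 ± 0.21), antisense to the tetraspanin gene Cd9 (-0.40), and Gm42517, 16718 bases from Pigg (-0.34). Across the 48 libraries the correlation of log2 CPM with the neighbour had a median of 0.33 over 25 such close pairs and 0.17 over the 70 other pairs whose neighbour was tested; the points share libraries, durations and stimuli.

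**Figure D3:**
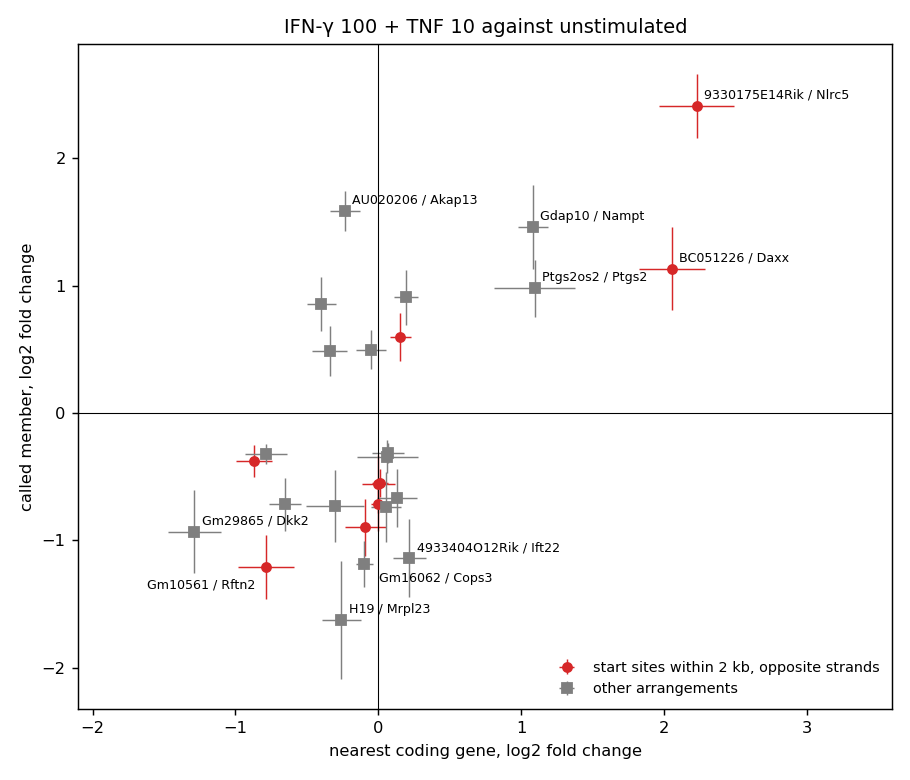
Log2 fold change under IFN-γ plus TNF of the called members (vertical axis) against that of the nearest coding gene (horizontal axis), with SE bars; red circles are pairs with start sites within 2 kb on opposite strands, grey squares the rest. 9330175E14Rik with Nlrc5 and BC051226 with Daxx lie in the upper right, AU020206 lies high above a neighbour at -0.23, and Gm16062 lies low beside Cops3 at -0.10.

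Time in culture was compared with 12 libraries a side, against 4 for a stimulus. At 6 h against 2 h, over the 12 stimuli, 59 members (51.3%) were called, 35 higher and 24 lower, against 57.2% of all genes, 29.6% higher and 27.5% lower. At 24 h against 12 h 19 were called (16.5%), 11 higher and 8 lower, against 32.1%, and at 24 h against 2 h 63 (54.8%), 34 higher and 29 lower, against 67.3%, 34.8% higher and 32.5% lower. The column names carry index sequences: the 2 h and 6 h libraries form 1 set of different indices, and the 12 h and 24 h libraries use the same indices again. The comparison of 24 h with 2 h crosses these sets, and set and time cannot be told apart there. In the unstimulated, IL-2 and lymphotoxin libraries alone, the calls were 21, 10 and 32.

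Gm17501 fell most. It lies 331 bases from Cyr61, a matricellular gene and a known target of YAP and serum signals, on the other strand. In the 12 libraries of 2 h it had 6.78 to 9.44 CPM (median 7.89), at 6 h 4.19 to 8.97 CPM (6.49), at 12 h 0.543 to 1.86 CPM (0.928) and at 24 h 0.406 to 2.02 CPM (1.17). The early and late libraries did not overlap, and the change from 2 to 24 h was -2.74 ± 0.13 (adjusted p = 1.4e-20, edgeR), with -2.52 ± 0.12 for Cyr61. Most of the fall lay between 6 and 12 h, where the index set also changes, so set and time cannot be told apart. The correlation with Cyr61 was 0.95 over the 48 libraries, which share the durations, and 0.30 for the deviations from the fit, both descriptions. No stimulus comparison with the unstimulated group called Gm17501.

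Gm26532 had a median of 6.22 CPM at 2 h and 1.87 CPM at 24 h (-1.82 ± 0.17, adjusted p = 5.5e-12, edgeR), and its ranges, 3.67 to 8.12 and 0.657 to 2.86 CPM, did not overlap. Gm26982, opposite the ghrelin gene Ghrl, went from 3.87 to 1.40 CPM in the median (-1.47 ± 0.15), also without overlap. In Gm26532 the counts were 17 to 61 at 6 h and 7 to 18 at 12 h, across the index sets. H19 (-1.34 ± 0.25) and Gm29865 (-1.04 ± 0.18) were lower as well, with overlapping ranges; in the unstimulated, IL-2 and lymphotoxin libraries alone these were -0.72 and -0.23 and were not called. Gm29865 lies near Dkk2, a modulator of WNT signals, which fell by 0.60 on the log2 scale.

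Rising members were led by BC051226, with a median of 0.938 CPM at 2 h, 3.02 CPM at 6 h and 2.69 CPM at 24 h (1.59 ± 0.22 at 24 h against 2 h). That rise rests on the stimulated libraries: in the unstimulated, IL-2 and lymphotoxin libraries it was 0.20 and not called. RP23-138K22.4 went from a median of 1.91 CPM at 2 h to 1.29 CPM at 6 h, 3.24 CPM at 12 h and 5.25 CPM at 24 h (1.37 ± 0.18), and was called in both comparisons within an index set. Gm26917, which lies next to Gm42418, rose from 41.2 to 108 CPM in the median (1.36 ± 0.19); in the unstimulated, IL-2 and lymphotoxin libraries alone its change was 0.68 and not called. Its deviations from the fit had a correlation of 0.60 with those of Gm42418 over the 48 libraries, and those of Gm15564 one of 0.49, both descriptions. Whether the counts of Gm26917 and Gm15564 hold reads from ribosomal RNA was not tested. RP24-122D14.3 rose by 1.13 ± 0.12 from 2 to 6 h, from 1.69 to 3.35 CPM to 4.26 to 6.6 CPM with no overlap. 4933404O12Rik (1.17 ± 0.18) and Gm26520 (1.13 ± 0.18) rose from 2 to 24 h.

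Snhg18, a host of small nucleolar RNAs 151 bases from Sema5a, went down and came back: its median was 6.33 CPM at 2 h, 3.57 at 6 h, 2.99 at 12 h and 6.22 at 24 h. It fell by 0.87 on the log2 scale from 2 to 6 h and rose by 0.83 ± 0.14 from 12 to 24 h, both within an index set, and 24 h against 2 h was -0.25 and not called. Sema5a, an axon guidance gene, had -1.14 ± 0.15 from 2 to 6 h. Neat1, the scaffold of paraspeckles, rose from a median of 147 CPM at 2 h to 298 CPM at 6 h (0.79 ± 0.13, adjusted p = 2.1e-06, edgeR) and had 228 and 263 CPM later. Junos, opposite the AP-1 gene Jun, rose by 0.69 ± 0.15 from 12 to 24 h, and Jun by 0.26.

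**Figure D4:**
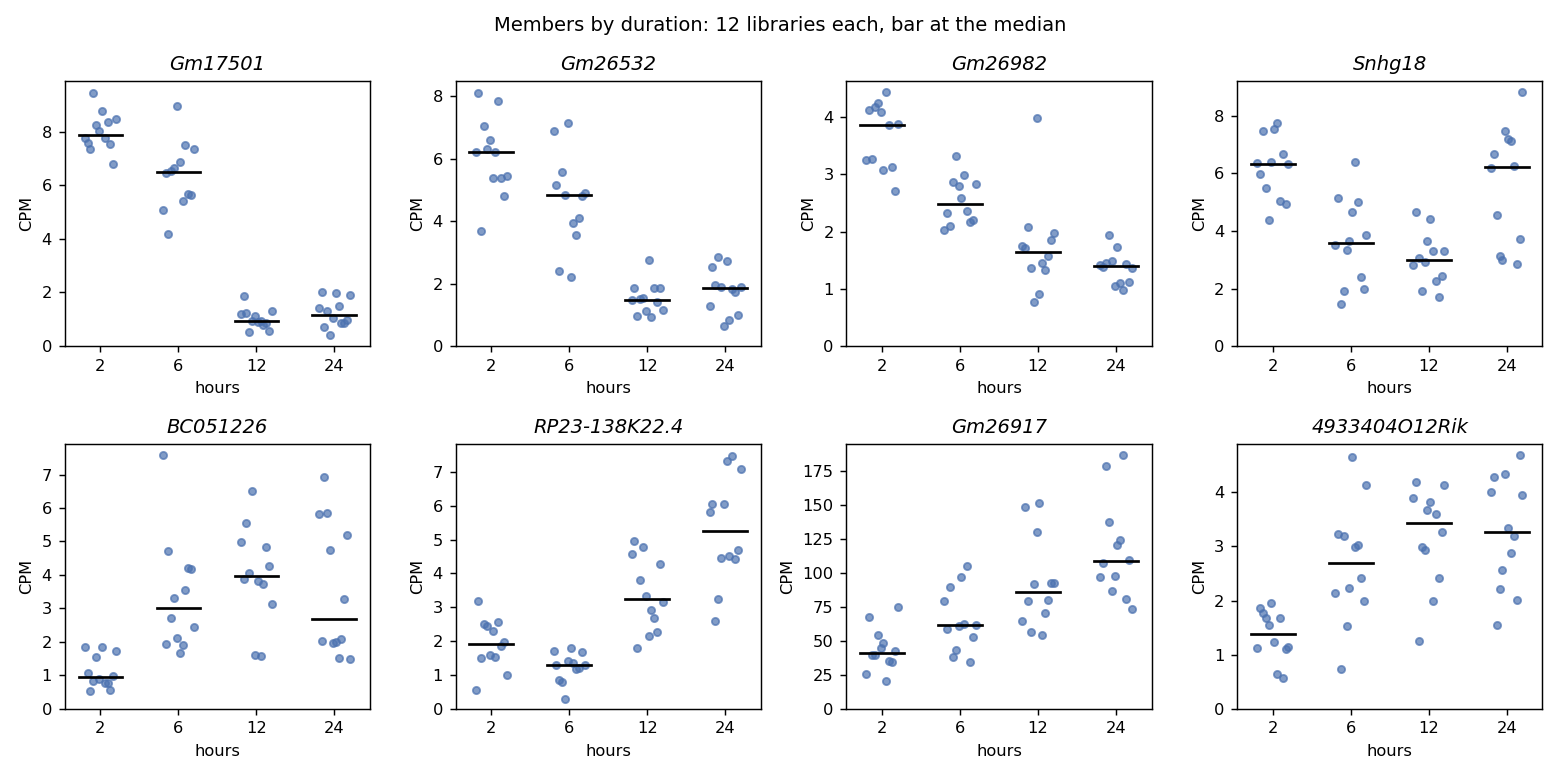
CPM (vertical axis, from 0) of 8 members in the 12 libraries of each duration, with a bar at the median. Gm17501 sits at 4.19 to 9.44 CPM at 2 and 6 h and at 0.406 to 2.02 CPM at 12 and 24 h, and Snhg18 is low at 6 and 12 h and high at 2 and 24 h.

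The counts on the function lists are to be read beside all genes, of which 12.8% were called higher and 9.3% lower with IFN-γ at 100 ng/ml, and 20.9% higher and 21.2% lower with the combination. Of 10 nuclear architecture genes 7 were tested and 4 are members, Malat1, Neat1, Kcnq1ot1 and Ftx; with the combination 1 of the 7 was called higher and 1 lower, and Ftx, the Xist activator locus and a microRNA host, was the member called (0.55 ± 0.22). Of 21 genes on the snoRNA host list 15 were tested and 6 are members; with IFN-γ at 100 ng/ml 4 of the 15 were called higher and 1 lower, and with the combination 5 higher and none lower, among them Snhg12 (0.50 ± 0.15) and Snhg6 (0.31 ± 0.11). Snhg18, Snhg20, Epb41l4aos and 2700038G22Rik were not called with the combination. The other tested hosts, such as Gas5 and Snhg1, carry another biotype in the table and are not members. The median log2 change of the 15 hosts was 0.18 with IFN-γ and 0.20 with the combination, beside -0.02 and -0.03 over all genes.

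Of 10 microRNA host genes 7 were tested; with the combination, where 42% of all genes were called, 3 were called higher and 1 lower, and the members among them were Ftx and H19. Mir17hg, host of the miR-17 cluster, had 6.00 to 15.4 CPM and was not called (-0.18 ± 0.21), nor was C130071C03Rik (-0.37 ± 0.20), although the slope of the latter on log2 hours was called with the combination (-0.44 ± 0.14; -0.33 and not called without the libraries of high Malat1). Of 7 imprinted genes 3 were tested, and 2 were called lower with the combination, H19 being the member; Airn, which silences Igf2r in cis, was not called (-0.36 ± 0.30). Of 13 immune-linked genes 9 were tested, and 5 were called higher and 1 lower with the combination, Ptgs2os2 being the member. Of 11 p53 and growth genes 6 were tested, with 3 called higher with IFN-γ at 100 ng/ml, Pvt1 being the member, and 1 higher and 1 lower with the combination.

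Protein partners of these RNAs were listed too, for the combination that called 42% of all genes. Of 7 paraspeckle proteins 2 were called with the combination, both lower, Pspc1 at -0.26 and Rbm14 at -0.21. Of 7 tested snoRNP proteins 2 were called higher and 1 lower with the combination, Nop56 at 0.28, Nop58 at 0.19 and Nop10 at -0.56.

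Malat1 varied between the durations of a stimulus and between the stimuli of a duration. With 1 library for each stimulus and duration, differences between libraries cannot be told apart from effects of stimulus and time. Its CPM was 634.6, 443.9, 1248 and 453.9 without stimulus, and 2596 in the 2 h library of TNF at 0.1 ng/ml, whose later libraries had 430.9, 665.5 and 503.8. In 8 libraries it was above 2 times the median of 701.3 CPM: TNF at 0.1 ng/ml at 2 h, TNF at 1 ng/ml at 6 and 12 h, lymphotoxin at 12 h, IFN-γ at 100 ng/ml at 12 and 24 h, and TNF at 10 ng/ml and the combination at 24 h. No comparison with the unstimulated group called Malat1, and among the durations 6 h against 2 h did (-0.68 ± 0.28).

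Other RNAs varied with it, and their place in the cell was not measured. The deviations of Kcnq1ot1, the antisense silencer of an imprinted cluster, from the fit had a correlation of 0.91 with those of Malat1 over the 48 libraries. The values were 0.78 for Neat1, 0.73 for Gm17024, 0.70 for Airn and 0.64 for Gdap10. In the 2 h library of TNF at 0.1 ng/ml Kcnq1ot1 had 30.9 CPM, against 5.03 to 6.25 CPM for the lowest and the median of the 12 libraries of 2 h. Of the 114 other members 13 (11.4%) had a correlation above 0.5 with Malat1 and 0 one below -0.5. Of all other genes 4.61% were above 0.5, and 320 of the 12203 tested genes were below -0.5. The coding genes Birc6 (0.93) and Son (0.90) were among those above 0.5. The genes above 0.5 had a median of 8178 exon bases, against 4463 for all tested genes. These correlations are descriptions over libraries that share stimuli and durations and differ in depth. RNA quality, nuclear RNA content and library preparation were not tested as their source. With the Malat1 level as a term in the fit, IFN-γ at 100 ng/ml called 11 members in place of 18, and the combination 35 in place of 34.

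**Figure D5:**
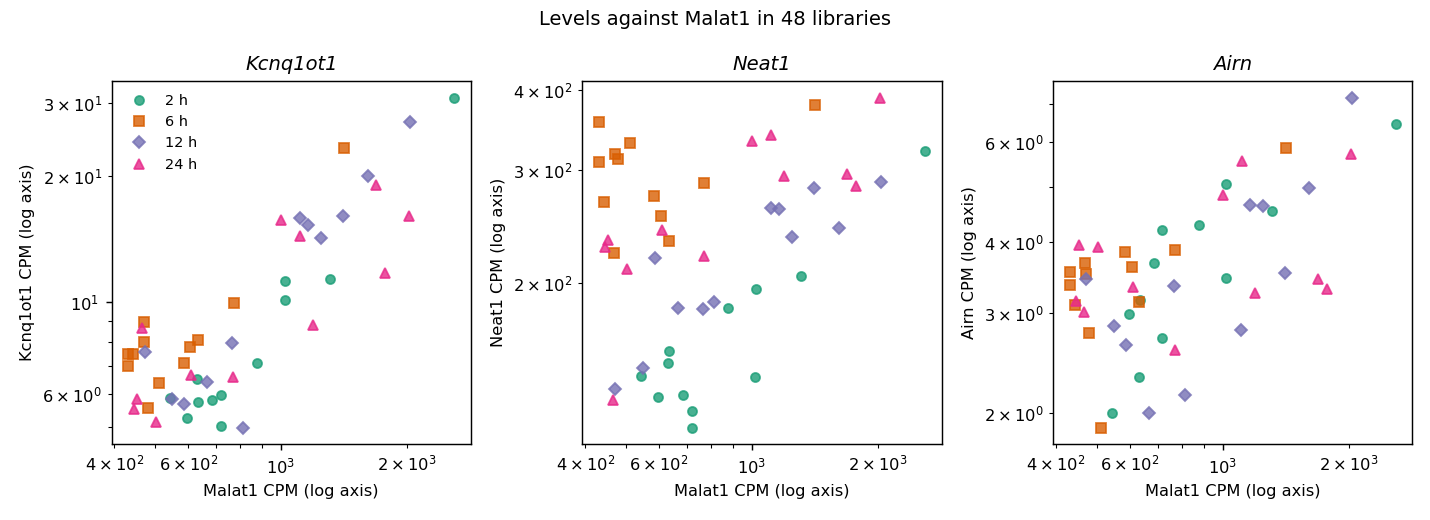
CPM of Kcnq1ot1, Neat1 and Airn (vertical axes) against Malat1 (horizontal axis), both log axes, in 48 libraries marked by duration. Kcnq1ot1 is higher where Malat1 is higher, up to 30.9 CPM in the library with 2596 CPM of Malat1.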

How the data were processed

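RNA was sequenced from NMM cells in 48 libraries, 1 per stimulus and duration, with a strand-keeping mRNA kit, per the labels' protocols. The deposited values are whole-number read counts per gene, made by the authors; the submitters' processing notes name HISAT and GRCm38, with no version; the counting tool and its strand setting were not given in the sources used here. Doses were taken from the sample titles. CPM was computed from these counts and the library totals, so the depth of 5612907 to 9663207 counts limits low members: 1 count is 0.103 to 0.178 CPM.

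All genes passing edgeR's filter (minimum count 10, minimum total 15; 12203 genes, all 115 members) were fitted with TMM factors and edgeR 4.0.16's quasi-likelihood test in R 4.3.3 (limma 3.58.1) on stimulus plus duration, with 33 residual degrees of freedom. Slopes used stimulus by log2 hours, with 22. P-values were Benjamini-Hochberg adjusted over all tested genes within each comparison, a call was an adjusted p below 0.05, and the SE is the log2 change divided by the root of F. The fit was tested on simulated counts. Alternatives were DESeq2 1.42.0, its size factors, no filter, no duration term, the compared groups alone, durations left out or taken alone, the unstimulated, IL-2 and lymphotoxin libraries alone, and other CPM minimums; the Malat1 level as a term and leaving out libraries of high Malat1 were added after seeing the data. Strand, exons and neighbours came from GENCODE M21, and promoters from RefSeq GRCm38.p6, where 64 of the 115 members matched by symbol.

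The members and lists were chosen with earlier results of these data known. Named members were called ones with a log2 change of at least 1 in size (up to 10 in each direction per comparison), the 10 highest by mean CPM, those on the lists and those beside the CPM minimum, each with its nearest coding gene; other members named with smaller changes were chosen after their values were seen. The result of 1 list of context genes is not reported here.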

Additional observations from a re-analysis of the deposited data

Results flagged for a closer look

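The search covered 43 sets of 4 values. They were single-duration log2 ratios of named results to the unstimulated library and, for the 12 groups, the share of counts held by the members. In the following cases, all of them ratios, 1 duration stood far from the other 3. By chance about 1 in 20 such sets would be flagged. For 9530082P21Rik with IFN-γ at 100 ng/ml the 2 h ratio was 3.80, against 2.56, 2.40 and 2.45 later, and its unstimulated 2 h library had no count. For Gdap10 the 12 h ratio was 0.49 with IFN-γ, against 1.92, 1.77 and 1.79, and -0.0483 with the combination, against 2.01, 1.93 and 2.04. The unstimulated 12 h library of Gdap10, which both ratios share, had 9.26 CPM, above the other unstimulated libraries.

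The response changed with time, by the test of the slope (log2 per doubling of the hours, difference from the unstimulated slope), in these members. With IFN-γ at 100 ng/ml the slope was 0.86 for BC051226, 0.49 for Map2k3os, 0.33 for 5430416N02Rik, 0.29 for Snhg12, -0.16 for Brip1os and -0.16 for 1700020I14Rik. With TNF at 10 ng/ml it was -1.29 for H19. With the combination it was 0.86 for BC051226, 0.86 for 1110046J04Rik, 0.43 for Ptgs2os2, 0.38 for Gm28875, 0.37 for AU020206 and 0.34 for 5430416N02Rik. It was -0.44 for C130071C03Rik, -0.63 for Gm16104, -0.71 for Gm29865, -0.81 for H19 and -0.94 for Gm13387. Without the 8 libraries of high Malat1 no slope listed here was called with IFN-γ or TNF, and with the combination those of AU020206 (0.46), 1110046J04Rik (0.78), Gm28875 (0.45) and Gm13387 (-0.81) were; 7 members were called there in all.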

How the results depend on the processing

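Of 548 alternative values for 50 named results, 454 kept direction and call, 94 kept the direction and lost the call and 0 reversed; 22 results kept the call under every alternative run, and DESeq2 and its size factors kept all 50. Counts of called members that moved follow, as numbers of members. With the 2 h and 6 h libraries alone, they were 3 for IFN-α1, 1 for TGF-β, 0 for TNF at 1 ng/ml, 0 for TNF at 10 ng/ml, 2 and 5 for IFN-γ at 1 and 100 ng/ml, 9 for the combination, 2 for the combination against IFN-γ, 3 against TNF, and 0 for IFN-γ against IFN-α1. With the 12 h and 24 h libraries alone, they were 5 for TGF-β, 14 for TNF at 10 ng/ml, 17 for IFN-γ at 1 ng/ml, 7 for the combination against IFN-γ, 2 for the departure from additivity and 23 for IFN-γ against IFN-α1. Without a duration term, they were 2 for IFN-α1, 0 for TGF-β, 0 and 1 for TNF at 1 and 10 ng/ml, 3 and 7 for IFN-γ at 1 and 100 ng/ml, 13 for the combination, 0 against IFN-γ, 4 against TNF and 1 for IFN-γ against IFN-α1. Fitting the compared groups alone gave 1 for TGF-β, 7 and 3 for TNF at 1 and 10 ng/ml, 1 for IFN-γ at 0.01 ng/ml, 10 for the combination, 6 against IFN-γ, 6 against TNF and 5 for IFN-γ against IFN-α1. Without the filter, the combination against IFN-γ gave 5 and IFN-γ against IFN-α1 5. DESeq2 gave 2 for TNF at 1 ng/ml and 3 for the slope of IFN-γ. With the Malat1 level as a term, TNF at 1 ng/ml gave 0, IFN-γ at 100 ng/ml 11 and IFN-γ against IFN-α1 8. Without the libraries of high Malat1, TGF-β gave 6, TNF at 1 and 10 ng/ml 0 and 3, IFN-γ at 100 ng/ml 6, the combination against IFN-γ 7 and against TNF 4, IFN-γ against IFN-α1 4, and the slopes of IFN-γ, TNF and the combination 0, 0 and 7. The unstimulated, IL-2 and lymphotoxin libraries alone gave 21, 10 and 32 for 6 h against 2 h, 24 h against 12 h and 24 h against 2 h. Leaving out each duration in turn gave 2 to 9 for IFN-α1, 0 to 5 for TGF-β, 0 to 2 for TNF at 1 ng/ml, 2 to 10 for TNF at 10 ng/ml, 4 to 14 for IFN-γ at 1 ng/ml, 6 to 18 at 100 ng/ml, 17 to 44 for the combination, 1 to 12 against IFN-γ, 4 to 14 against TNF and 3 to 19 for IFN-γ against IFN-α1. A minimum mean of 1 CPM gave 205 members and one of 5 CPM 45, and the members held a mean of 0.248% of the counts without Gm42418. The alternatives with fewer libraries test with fewer degrees of freedom; for the others the cause was not tested. No paired analysis was possible because the labels give no replicate number; duration, which all groups share, is already a term of the fit, and the values without that term are given above.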
